A study of Mus musculus with 6 samples.

Results

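The subunits of the glutamate receptors and of the GABA-A and GABA-B receptors were examined in NG2 lineage cells of the mouse spinal cord. Members were all genes of the count table whose mouse symbol begins Gria, Grik, Grin, Grid, Grm, Gabra, Gabrb, Gabrg or Gabbr and ends in a subunit number or letter, with Gabrd and Gabre. This gave 42 of 38293 genes: 4 AMPA, 5 kainate, 7 NMDA, 2 delta, 8 metabotropic glutamate (mGlu), 14 GABA-A and 2 GABA-B receptor genes. The pi, theta and rho GABA-A subunits are outside this set.

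Libraries came from live tdTomato-positive cells sorted from spinal cords of perfused female mice, 3 labelled Control and 3 labelled EAE (experimental autoimmune encephalomyelitis, an induced autoimmune attack on central nervous system myelin). All mice in both groups had the genotype NG2-CreERTM:Rosa-tdTomato/+:Cx3cr1GFP/+. The promoter of Cspg4, the gene for NG2, drives an inducible Cre that switches on the red protein tdTomato in these mice, and 1 allele of the chemokine receptor gene Cx3cr1 carries green fluorescent protein. The NG2 promoter is active in oligodendrocyte precursor cells and also in pericytes and smooth muscle of vessels, and descendants of a recombined cell keep the label. Tissue was dissociated with actinomycin D, which blocks transcription. The sources used here do not give age, the time of recombination, the stage of disease or whether the Control mice received an injection. Nothing in the labels ties a library to 1 animal, so p-values measure the spread between these libraries, part of which may be technical.

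AMPA and kainate receptors are glutamate-gated cation channels that carry fast excitatory currents, and NMDA receptors are slower, calcium-permeable channels that need a co-agonist. GABA-A receptors are chloride channels, while mGlu and GABA-B receptors act through G proteins. Oligodendrocyte precursor cells are known to receive synapses from neurons and to carry AMPA and GABA-A receptors, which they largely lose as they mature.

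The pore of each AMPA and kainate subunit is lined by a short re-entrant loop. In that loop lies the Q/R site, a glutamine codon that RNA editing converts to an arginine codon in Gria2, and in part of the transcripts of Grik1 and Grik2. Edited Gria2 makes an AMPA receptor nearly impermeable to calcium, so the proportion of Gria2 among AMPA subunits is of general interest. The stretch of 45 bases that holds this codon is shown for the AMPA subunits and for the pair of kainate subunits that rose, 5′ to 3′, with the Q/R-site codon in capitals. Sequences are from GENCODE M21 transcripts on GRCm38, and each stretch continues into the next exon.
Gria1: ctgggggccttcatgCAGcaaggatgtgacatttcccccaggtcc
Gria2: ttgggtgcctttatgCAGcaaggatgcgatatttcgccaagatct
Gria3: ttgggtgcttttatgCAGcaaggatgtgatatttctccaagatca
Gria4: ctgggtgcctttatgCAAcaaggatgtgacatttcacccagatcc
Grik2: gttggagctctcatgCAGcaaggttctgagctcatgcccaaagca
Grik3: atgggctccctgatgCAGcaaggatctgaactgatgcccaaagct
The codon lies in exon 11 of Gria2 at chr3:80706911-80706913 on the minus strand, in exon 11 of Gria3 at chrX:41610265-41610267 on the plus strand and in exon 12 of Gria4 at chr9:4464137-4464139 on the minus strand. Within this stretch Gria2 and Gria3 differed at 4 of 45 bases, Gria2 and Gria4 at 7, and Grik2 and Grik3 at 10. Counts per gene carry no information on editing, which was not measured here.

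The libraries held 22141522 to 28734798 reads, of which 21848 to 33909 fell on the receptor genes. Levels are in CPM, the count of a gene relative to its library's total after edgeR's TMM scaling, and a count of 0 allows up to 3 reads in a library, or 0.0997 to 0.139 CPM. Such limits cover counting error only. Of the 42 genes 30 passed the filter on low counts and were tested, and 12 did not. By the edgeR quasi-likelihood test with Benjamini-Hochberg adjustment over all 16966 tested genes, 5 receptor genes were higher in EAE and 1 was lower at an adjusted p under 0.05. In the whole table, 2.82% of tested genes were called higher and 4.33% lower, or 7.14% in either direction. Among tested receptor genes these shares were 16.7% and 3.33%. The ranges of CPM did not overlap for 8 receptor genes with EAE above (26.7% of those tested) and 3 with EAE below (10% of those tested), against 13.4% of all tested genes in each direction and 26.8% in either. The median log2 fold change was 0.02 over the 30 tested receptor genes and 0.004 over all tested genes. Of the 6 called receptor genes only Gria3 was called whichever of the 6 libraries was left out.

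**Figure D1:**
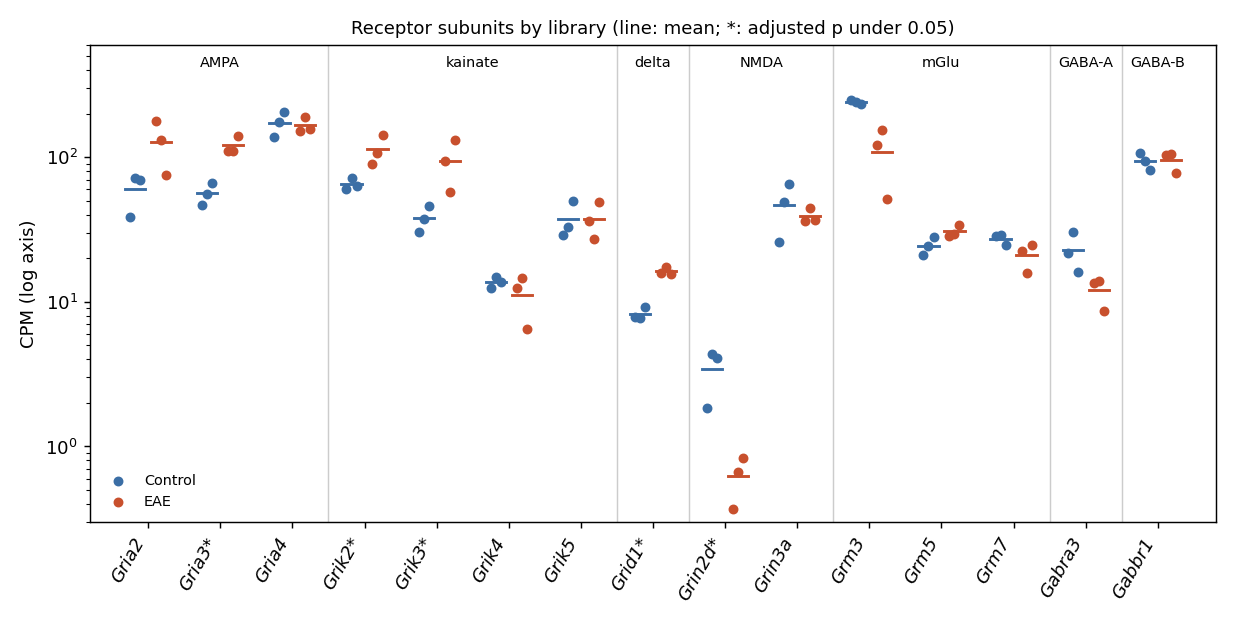
CPM on a log axis of 15 receptor subunits in every library, for 14 with a mean of at least 10 CPM and for Grin2d, grouped by receptor class. Points are libraries (3 Control, 3 EAE), lines are group means and asterisks mark an adjusted p under 0.05. All EAE points of Gria3, Grik2, Grik3 and Grid1 lie above all Control points, and those of Grin2d lie below.

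Cell type markers were read beside these results. In EAE all 14 tested pericyte and smooth muscle markers and all 11 endothelial markers were lower, with summed levels of 3730 to 6500 CPM in Control and 582 to 994 in EAE for the former, and 1410 to 2350 and 289 to 401 for the latter. Of 14 precursor markers 5 were higher (3040 to 4630 against 4930 to 6290 CPM), and of 11 markers of committed precursors and newly formed oligodendrocytes 8 were (1870 to 2310 against 3530 to 3860 CPM). Mature oligodendrocyte and myelin markers gave 1 higher call among 11, at 30700 to 35800 CPM in Control and 24900 to 45300 in EAE. The lineage factors Olig1, Olig2 and Sox10 had log2 fold changes of -0.05, -0.07 and 0.30, none of them called. Of 7 tested neuron markers 1 was higher and 1 lower, at 45.5 to 49.4 CPM in Control and 49.4 to 58.9 in EAE in sum; Chat had no read and the vesicular glutamate transporter genes Slc17a6 and Slc17a7 had none either. Astrocyte markers gave 1 higher call of 9 (37.4 to 80.2 against 79.9 to 113 CPM), myeloid markers 3 of 14 (37.8 to 55.8 against 48.2 to 374 CPM) and fibroblast markers 2 lower of 5 (48.3 to 90.1 against 18.5 to 31.7 CPM, with Dpt at 0). In bulk samples fewer cells of a type and less RNA per cell cannot be told apart, and the part of these shifts in the results on receptor genes was not tested.

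AMPA subunits. Gria3 rose, Gria4 did not pass the test, Gria2 was higher in every EAE library without passing it, and Gria1 was sparse. Gria3, an AMPA subunit that usually pairs with the other subunits in mixed channels (ENSMUSG00000001986, chromosome X, 41400854 to 41678601), was at 46.9, 55.9 and 66.2 CPM in Control (libraries are given in the order of replicates 1, 2 and 3 throughout) and at 111, 111 and 140 CPM in EAE. All EAE values were above all Control values, and the lowest EAE level was well over the highest Control level. The mean rose from 56.3 ± 9.69 to 121 ± 16.4 CPM (SD, n = 3 per group here and below), a 2.14-fold increase (log2 fold change 1.10 ± 0.18, SE here and below, edgeR adjusted p = 0.00821). Leaving out each library in turn gave log2 fold changes of 0.98 to 1.23 and adjusted p-values of 0.0114 to 0.0474, all called.

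Gria2, the subunit that governs calcium permeability (ENSMUSG00000033981, chromosome 3, 80681450 to 80802835), was at 38.3, 71.7 and 69.8 CPM in Control and at 178, 131 and 75.8 CPM in EAE. The EAE libraries were spread over a wider range than the Control libraries, and EAE replicate 3 lay just above the highest Control library. Its log2 fold change of 1.10 ± 0.33 was of the same size as that of Gria3, but the adjusted p was 0.0927. Without EAE replicate 3 the log2 fold change was 1.37 and the gene was called (edgeR adjusted p = 0.0199). None of the other fits that left out a library called it (edgeR adjusted p 0.147 to 0.274). The DESeq2 test called it with all libraries (adjusted p = 0.00985). Gria4, abundant in glial precursors (chromosome 9, 4417896 to 4796234), was at 139, 176 and 204 CPM in Control and 151, 190 and 157 CPM in EAE. The groups overlapped fully, with a log2 fold change of -0.06 ± 0.18 (edgeR adjusted p = 0.900) whose sign changed when single libraries were left out.

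Per kilobase of the deposited gene length, Gria4 had the highest AMPA subunit level in Control, at 28.2 ± 5.28 CPM per kilobase, against 8.62 ± 2.69 for Gria2 and 5.71 ± 0.983 for Gria3. Gria4 made up 68.8%, 64.1% and 64.3% of the summed AMPA signal in Control and 40.1%, 50.6% and 50.3% in EAE, so its share was lower in every EAE library. Gria3 had 14.4%, 12.7% and 13.0% of the signal in Control and 18.3%, 18.4% and 28.0% in EAE. The Gria2 share was 16.7%, 23.1% and 19.4% in Control and 41.6%, 30.7% and 21.5% in EAE, where it overlapped between the groups. Within a library the ratio of Gria3 to Gria4 per length, which no scaling of libraries can alter, was 0.209, 0.198 and 0.202 in Control and 0.457, 0.365 and 0.556 in EAE. These shares are a description with no test. They depend on the length assigned to each gene: with the longest annotated transcript, Gria3 took 22.2% and Gria2 11.6% in Control, which reverses their order, while Gria4 remained at 65.1%.

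**Figure D2:**
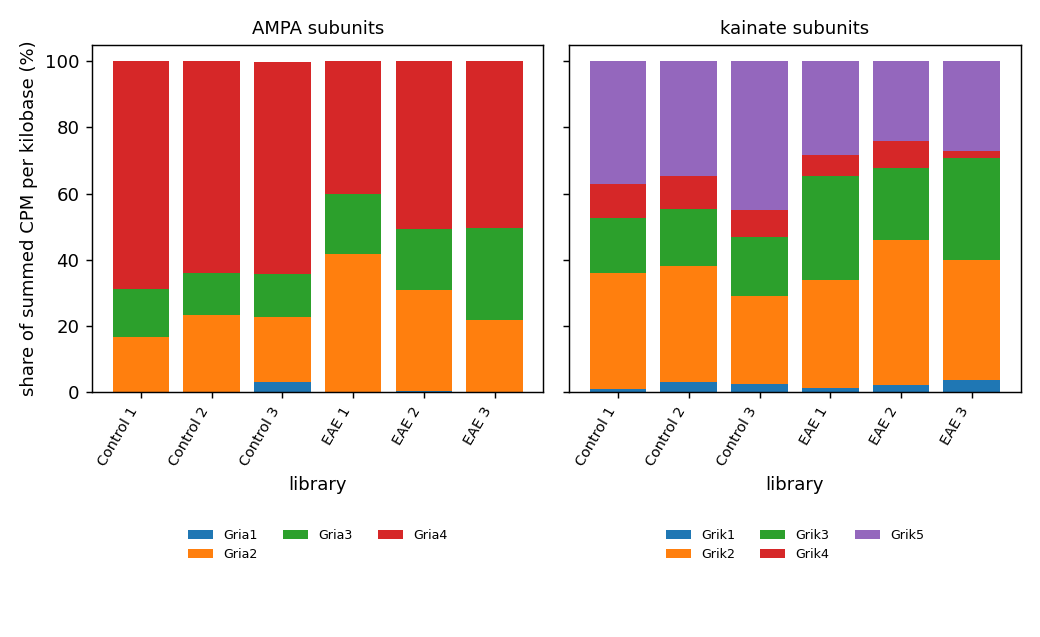
Share (%) of the summed CPM per kilobase of each receptor class taken by each subunit, 1 bar per library, for AMPA and kainate subunits. Colours stand for subunits. The Gria4 segment is 64.1% or more in every Control library and 50.6% or less in every EAE library, and the Grik3 segment is 17.8% or less in Control and 21.7% or more in EAE.

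The promoter of Gria2 is shown because it was the only receptor promoter of the 27 genes found in the RefSeq table to hold the core of the RE1 element, the site of the repressor REST that keeps many neuronal genes silent outside neurons. The window runs from 250 bases before to 50 after the start at chr3:80802786-80803085 on the minus strand (GRCm38.p6), 5′ to 3′, with the match in capitals.
Gria2 promoter: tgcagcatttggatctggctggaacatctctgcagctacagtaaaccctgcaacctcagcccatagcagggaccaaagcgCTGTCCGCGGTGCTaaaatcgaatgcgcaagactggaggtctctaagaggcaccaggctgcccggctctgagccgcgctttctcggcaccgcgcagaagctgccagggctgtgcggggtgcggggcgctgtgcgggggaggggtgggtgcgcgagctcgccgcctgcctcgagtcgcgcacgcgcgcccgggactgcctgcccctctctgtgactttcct
The RE1 core, which has a pair of free positions in its middle, was searched on both strands and is shown here on the opposite strand, and 17 of 32851 promoters of the same length (0.0517%) held it. The match is a description of letters and does not show that REST binds there in these cells. The promoter of Grik2 and that of Grik3 did not hold this core. Gria3 and Grid1 were not among the 27 genes found, so their promoters were not searched.

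Gria1 had most of its reads in 1 library. It was at 0.164, 0.241 and 10.0 CPM in Control and 0.111, 1.12 and 0.498 CPM in EAE, so Control replicate 3 held 82.5% of its summed CPM. Its log2 fold change of -2.59 ± 1.48 (edgeR adjusted p = 0.390) became 1.48 without that library. Grin2a, an NMDA subunit of mature neurons, was concentrated in the same library, since 29 of its 31 reads came from Control replicate 3. The sum of the 10 neuron markers in that library, 46.0 CPM, was within the range of the other libraries, 45.5 to 58.9 CPM. A sum can stay level while single genes in it move, and which cells the Gria1 and Grin2a reads came from was not tested. Control replicate 3 also stood apart on the second principal component of all genes, at -80.5 against 48.2 and 46.4 for the other Control libraries.

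**Figure D3:**
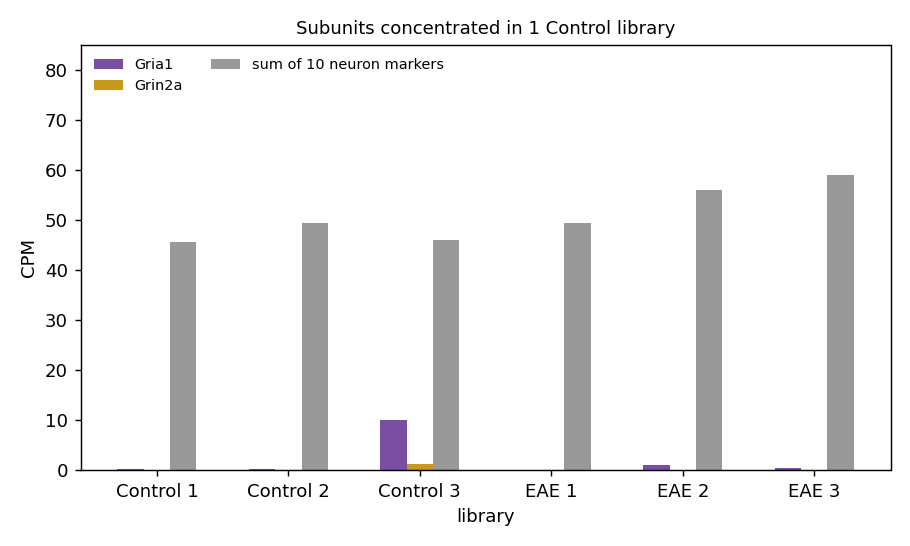
CPM of Gria1 and Grin2a and the summed CPM of 10 neuron markers in each of the 6 libraries (bars, 1 value each, no error). Gria1 reaches 10.0 CPM in Control replicate 3, and the neuron marker sum there is 46.0 CPM, within the range of the other libraries.

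Kainate subunits. Grik2 and Grik3, which encode low-affinity subunits able to form channels on their own, rose, whereas the high-affinity partners Grik4 and Grik5 did not pass the test. Grik3 (ENSMUSG00000001985, chromosome 4, 125490700 to 125714173) was at 30.5, 37.6 and 45.8 CPM in Control and 94.5, 57.5 and 132 CPM in EAE. All EAE values were above all Control values, with EAE replicate 2 nearest to Control. The mean rose 2.50-fold from 38.0 ± 7.62 to 94.8 ± 37.4 CPM (log2 fold change 1.32 ± 0.29, edgeR adjusted p = 0.0301), and the call held in 1 of 6 fits that left out a library (adjusted p 0.00978 to 0.133), that without EAE replicate 2.

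Grik2 (ENSMUSG00000056073, chromosome 10, 49094833 to 49788766) was at 59.8, 71.5 and 63.6 CPM in Control and 89.8, 107 and 143 CPM in EAE. The groups did not overlap, and the Control libraries lay close together. It rose 1.74-fold (log2 fold change 0.80 ± 0.19, edgeR adjusted p = 0.0397), with adjusted p-values of 0.0417 to 0.154 and 1 call of 6 when single libraries were left out, that without EAE replicate 1. Grik5 was at 29.2, 33.0 and 49.5 CPM in Control and 36.2, 27.4 and 49.3 CPM in EAE, with no separation of the groups (log2 fold change 0.02 ± 0.27, edgeR adjusted p = 0.983). Grik4 was at 12.4, 14.8 and 13.8 CPM in Control and 12.5, 14.5 and 6.45 CPM in EAE, where EAE replicate 3 was lowest (log2 fold change -0.29 ± 0.32, edgeR adjusted p = 0.694). Grik1 was under 6 CPM in every library (log2 fold change 0.77 ± 0.74, edgeR adjusted p = 0.641).

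Per length, Grik5 with 39.0 ± 5.35% and Grik2 with 32.4 ± 4.81% of the kainate signal were the most abundant subunits in Control and did not differ beyond their spread. In EAE the Grik5 share ranged from 24.2% to 28.3%, and the Grik3 share was 31.6%, 21.7% and 30.9%, where Grik3 had been at 16.6%, 17.0% and 17.8% in Control. The ratio of Grik3 to Grik5 within a library was 0.447, 0.488 and 0.396 in Control and 1.12, 0.897 and 1.15 in EAE. The groups did not overlap in this ratio, which library scaling cannot move.

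Delta subunits. Delta receptors are orphan relatives of the ionotropic receptors that bind cerebellins at synapses and are not opened by glutamate. Grid1 (ENSMUSG00000041078, chromosome 14, 34820108 to 35583379) was at 7.89, 7.73 and 9.21 CPM in Control and 15.8, 17.5 and 15.6 CPM in EAE. Both groups were tight and far apart. The 1.97-fold rise (log2 fold change 0.98 ± 0.23, edgeR adjusted p = 0.0374) was called in 1 of 6 fits without a library, that without Control replicate 3, with log2 fold changes of 0.93 to 1.06 and adjusted p-values of 0.0458 to 0.129.

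NMDA subunits. Of 7 genes 4 were tested, and Grin2d was the only receptor gene that fell. Grin2d, a subunit that gives slow channels with weak magnesium block (ENSMUSG00000002771, chromosome 7, 45831883 to 45878378), had 45, 109 and 89 reads in Control and 10, 18 and 25 in EAE. These counts correspond to 1.85, 4.39 and 4.12 CPM and to 0.368, 0.671 and 0.831 CPM, a low level in both groups but without overlap. It fell 5.49-fold (log2 fold change -2.46 ± 0.62, edgeR adjusted p = 0.0484), and the call was lost in all 6 fits that left out a library (adjusted p 0.0611 to 0.174). The antisense gene Gm45441 covers 9.7% of its exonic bases, which leaves its value uncertain.

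The ratio of Grin2d to the pericyte receptor gene Pdgfrb per length was 0.0054, 0.0105 and 0.0169 in Control and 0.00575, 0.0140 and 0.0175 in EAE, so it overlapped between groups. Its ratio to the lineage factor gene Olig2 was 0.00327, 0.00746 and 0.00460 in Control and 0.000618, 0.00105 and 0.00116 in EAE, without overlap. All tested pericyte and smooth muscle markers fell in EAE and Olig2 was not called. A gene that fell about as far would therefore give this pattern of ratios whatever its cell of origin. Which cells the Grin2d reads came from was not tested.

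Grin3a, which encodes an NMDA subunit that reduces calcium entry, was the most abundant NMDA gene. It was at 26.0, 48.8 and 65.0 CPM in Control and 36.2, 44.7 and 36.7 CPM in EAE, with overlap (log2 fold change -0.25 ± 0.30, edgeR adjusted p = 0.724). Per length it made up 68.3 ± 2.34% of the NMDA signal in Control and 77.4 ± 4.65% in EAE. Grin1, the subunit that every conventional NMDA receptor needs, was at only 3.66 ± 2.80 and 4.05 ± 1.28 CPM (log2 fold change 0.15 ± 0.70, edgeR adjusted p = 0.941), and 13.5% of its exonic bases are covered by the antisense gene Grin1os. Grin3b was at 2.24 ± 0.946 and 1.33 ± 0.457 CPM (log2 fold change -0.75 ± 0.60, edgeR adjusted p = 0.563), with 32.1% of its exonic bases inside Tmem259. Grin2b had 15 reads in Control replicate 1, 4 in EAE replicate 1 and none elsewhere, and Grin2c had no read in any library.

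Metabotropic glutamate receptors. None of the 4 tested mGlu genes was called by edgeR, and 1 was at an unadjusted p under 0.05. Grm3, a receptor coupled to inhibitory G proteins (ENSMUSG00000003974, chromosome 5, 9485541 to 9725170), had the highest level per length of all 42 genes in Control, at 67.8 ± 2.07 CPM per kilobase. It was at 247, 239 and 233 CPM in Control and 121, 154 and 51.2 CPM in EAE. The Control libraries agreed closely, and every EAE library was far below them, with EAE replicate 3 lowest. The log2 fold change was -1.14 ± 0.33 (edgeR adjusted p = 0.0817). Grm3 was called without EAE replicate 3 (-0.79, edgeR adjusted p = 0.0131) and without EAE replicate 2 (-1.48, edgeR adjusted p = 0.0398). None of the other fits that left out a library called it (edgeR adjusted p 0.158 to 0.206). DESeq2 called it with all libraries (-1.15, adjusted p = 0.00470). In EAE the order of Grm3, at 30.7 ± 14.8 CPM per kilobase, and Gria4, at 27 ± 3.44, could not be told apart beyond their spread.

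Grm5, a receptor coupled to calcium release through Gq, was at 21.1, 24.2 and 28.1 CPM in Control and 28.7, 29.5 and 34.0 CPM in EAE. The lowest EAE library lay just above the highest Control library, and the log2 fold change of 0.33 ± 0.19 was not called (adjusted p = 0.398). The Grm5 to Grm3 ratio per length was 0.0379, 0.0450 and 0.0535 in Control and 0.106, 0.0850 and 0.295 in EAE. Grm7, a presynaptic receptor in neurons, was at 28.3, 29 and 24.6 CPM in Control and 22.3, 15.8 and 24.7 CPM in EAE, with overlap (log2 fold change -0.38 ± 0.22, edgeR adjusted p = 0.395). The 4 genes Grm2, Grm4, Grm6 and Grm8, had 6, 41, 2 and 7 reads over all libraries and were not tested.

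GABA-A subunits. None of the GABA-A subunit genes fell by the edgeR test. Gabra3, the most abundant alpha subunit (chromosome X, 72432681 to 72656848), was at 21.7, 30.2 and 16.2 CPM in Control and 13.5, 13.9 and 8.61 CPM in EAE, without overlap. Its log2 fold change of -0.92 ± 0.30 was not called by edgeR (adjusted p = 0.114) and was by DESeq2 (adjusted p = 0.0368). No fit that left out a library called it (edgeR adjusted p 0.076 to 0.319).

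GABA-A subunit genes lie in clusters, and some members of a cluster differed widely in level. Values here are in CPM, which is not adjusted for length. Per kilobase, Gabrg1 and Gabrb1 on chromosome 5 did not differ beyond their spread in Control, at 0.474 ± 0.379 and 0.677 ± 0.431. The cluster on chromosome 7 held Gabrg3, at 9.33 ± 7.74 and 7.89 ± 7.02 CPM, and Gabra5, with 3 reads in all. Gabrg3 had a log2 fold change of -0.24 ± 0.74 (edgeR adjusted p = 0.905). The cluster on chromosome 5 held Gabrg1 (2.26 ± 1.81 and 4.46 ± 1.94 CPM), Gabrb1 (2.09 ± 1.33 and 1.09 ± 0.636 CPM), Gabra4 (0.323 ± 0.0693 and 0.958 ± 0.696 CPM) and Gabra2, of whose 49 reads 43 came from EAE replicate 2. The log2 fold changes were 0.98 ± 0.64 for Gabrg1, -0.93 ± 0.76 for Gabrb1 and 1.56 ± 0.83 for Gabra4, with edgeR adjusted p-values of 0.462, 0.574 and 0.347. In the cluster on chromosome 11, Gabrb2 was at 5.76 ± 1.61 and 4.23 ± 1.26 CPM (log2 fold change -0.45 ± 0.39, edgeR adjusted p = 0.607), and Gabra6 had no read. Gabre and Gabrd, both linked to extrasynaptic receptors, had 8 to 37 and 1 to 26 reads per library, and Gabrd was not called (log2 fold change -1.01 ± 1.04, edgeR adjusted p = 0.671). Neither Gabrg1 nor Gabrg3 reached 18 CPM in any library.

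GABA-B receptor genes. The receptor is an obligate pair of the products of Gabbr1, which binds GABA, and Gabbr2, which couples to the G protein. Gabbr1 (ENSMUSG00000024462, chromosome 17, 37045966 to 37075067) was at 107, 93.8 and 81.2 CPM in Control and 104, 105 and 77.9 CPM in EAE, and Gabbr2 was at 5.34, 9.14 and 8.42 CPM and 8.22, 4.14 and 14.0 CPM. The groups overlapped for both genes, with log2 fold changes of 0.02 ± 0.17 and 0.20 ± 0.45 (edgeR adjusted p = 0.963 and 0.864). Per length Gabbr2 was at 0.0663, 0.129 and 0.138 of the level of Gabbr1 in Control and at 0.105, 0.0524 and 0.238 in EAE.

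**Figure D4:**
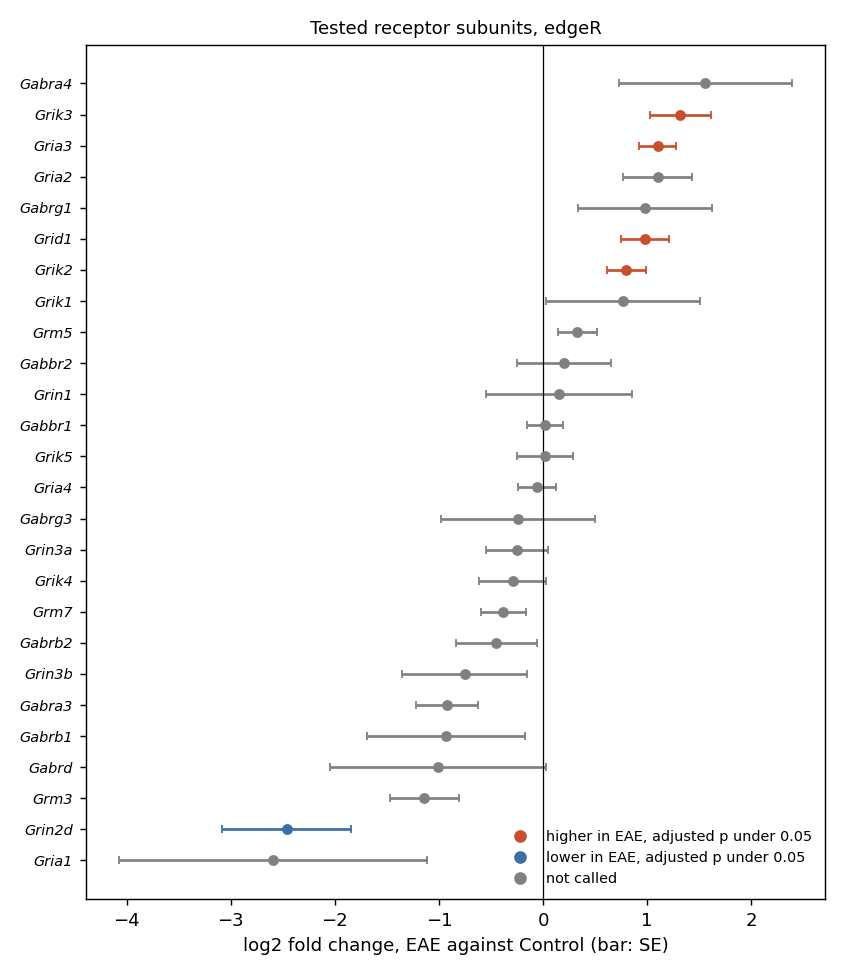
Log2 fold change of EAE against Control with its SE (bars) for 26 tested receptor genes, from the edgeR fit on 3 libraries per group, ordered by size. Gria3, Grik2, Grik3 and Grid1, called higher, lie between 0.80 and 1.32 with SE of 0.29 or less, and Grin2d lies at -2.46, while Gria1, at -2.59, has a wide bar and was not called.

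The order of levels per length in Control was Grm3, Gria4, Gabbr1 (12.1 ± 1.66 CPM per kilobase), Grik5 (9.70 ± 2.81), Gria2 (8.62 ± 2.69) and Grik2 (7.85 ± 0.723). The ranges of Grik5, Gria2 and Grik2 overlapped, so their order is not settled, and the places of Gria2 and Gria3 also depend on the length used. With the longest transcript, Gria3 was at 10.8 CPM per kilobase in Control, above Grik5 at 9.16, and Gria2 was at 5.78. In EAE Grm3 and Gria4 were followed by Gria2 (18.4 ± 7.34), Grik2 (13.7 ± 3.30), Gabbr1 (12.3 ± 1.96) and Gria3 (12.2 ± 1.67), again with overlapping ranges. This order depends on the length as well: with the longest transcript, Gria3 took 35.2% of the AMPA signal in EAE and Gria2 18.6%, which reverses these genes. Summed over a class, AMPA subunits were at 43.1 ± 9.42 CPM per kilobase in Control and 57.8 ± 6.19 in EAE, kainate subunits at 24.6 ± 4.09 and 36.9 ± 9.57, and mGlu receptors at 75.5 ± 1.88 and 38.3 ± 13.8. GABA-A subunits were at 14.5 ± 2.80 and 14.9 ± 2.03, and GABA-B at 13.4 ± 1.41 and 13.8 ± 1.23.

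Ratios to Olig2, whose own level was 235 to 372 CPM in Control and 248 to 298 in EAE, did not overlap between groups for Gria3, Grik2, Grik3 or Grid1. For Gria3 the ratio per length was 0.0492, 0.0565 and 0.0440 in Control and 0.111, 0.104 and 0.116 in EAE. That of Grik3 had a highest Control value of 0.0418 and a lowest EAE value of 0.0588. Olig2 was not called, and the separation was mostly lost against markers that were called higher, a comparison added after seeing the data. Those markers were picked for their rise in the same libraries, so a gene that rose about as much loses separation by that choice. Why these receptor genes rose was not tested. Against the 5 precursor markers called higher, the Gria3 ratio was above Control in all EAE libraries for 1 marker, below for 1 and overlapped for 3. Against the 8 called markers of committed precursors and newly formed oligodendrocytes, it was above for 0, below for 3 and overlapped for 5. The ratios of Grik2, Grik3 and Grid1 were above for 0 of these markers. Against the summed CPM of a whole list, Gria3 was at 14.3 to 15.4 per 1000 of the precursor sum in Control and 21.6 to 22.6 in EAE, and at 25 to 28.6 per 1000 of the committed and newly formed sum in Control and 28.7 to 39.5 in EAE. Grik3 did not overlap against the precursor sum and did against the other, while Grik2 and Grid1 overlapped against both.

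Proteins that bind or supply these receptors were read from lists of related genes. Of 14 auxiliary subunits of AMPA and kainate receptors 11 were tested and 2 rose, with a median log2 fold change of 0.68. Neto2, an auxiliary subunit that slows kainate receptor currents (chromosome 8, 85636588 to 85700924), was at 6.74, 8.81 and 7.22 CPM in Control and 20.9, 23.0 and 20.4 CPM in EAE. The groups were tight and far apart, and the 2.82-fold rise (log2 fold change 1.5 ± 0.23, edgeR adjusted p = 0.00652) was called in all 6 fits without a library. Cacng5, a transmembrane AMPA receptor regulatory protein, was at 2.34, 1.21 and 0.417 CPM in Control and 15.1, 6.78 and 142 CPM in EAE. EAE replicate 3 held most of its reads, and the log2 fold change of 5.35 ± 1.23 (edgeR adjusted p = 0.0380) was lost without any 1 Control library and ranged from 3.06 to 6.04 when single libraries were left out. The lowest of these values was that without EAE replicate 3. Cacng4, the most abundant of the auxiliary genes by CPM with Cacng7, was at 122 ± 38.2 and 120 ± 42.7 CPM and was not called.

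Of 17 tested glutamate receptor scaffold genes 1 fell and none rose, with a median log2 fold change of 0.55. The gene that fell was Shank3, a postsynaptic scaffold also found in vessel cells, at 28.9, 17.1 and 22.5 CPM in Control and 5.53, 6.15 and 8.71 CPM in EAE (log2 fold change -1.75 ± 0.29, edgeR adjusted p = 0.00978), and its highest adjusted p was 0.0528 on leaving out a library, with no call when that was the first replicate of either group. None of the 7 GABA-A scaffold and assembly genes was called, and their median was 0.02. The nearest was Nlgn2, the adhesion protein of inhibitory synapses, at 64.0 ± 12.9 and 136 ± 60.7 CPM (edgeR adjusted p = 0.0681).

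Among 9 tested genes of glutamate transport and metabolism 1 rose, Slc1a1, a glutamate and cysteine transporter, at 115 ± 29.9 and 205 ± 15.9 CPM (log2 fold change 0.84 ± 0.19, edgeR adjusted p = 0.0345). The gene 4430402I18Rik covers 31.9% of its exonic bases, and the call was lost without Control replicate 1 or 3 and without EAE replicate 1 or 2 (adjusted p up to 0.144). The median of this list was 0.35. Glul, glutamine synthetase and the most abundant gene of the list, was at 3260, 2590 and 3140 CPM in Control and 2050, 2530 and 1430 CPM in EAE, without overlap but not called (log2 fold change -0.58 ± 0.23, edgeR adjusted p = 0.191). Among 7 tested genes of GABA transport and metabolism Slc6a13, a GABA transporter of meninges and vessels, fell 5.13-fold (7.20 ± 2.33 to 1.40 ± 0.104 CPM, edgeR adjusted p = 0.0115), and lost its call without Control replicate 1 or 2 and without EAE replicate 1 (adjusted p up to 0.0627). The median of that list was -0.47.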

How the data were processed

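The authors deposited raw read counts per Ensembl gene with a gene length, 1 column per library, without normalization. Per the submitters' processing notes, which assign no step to any of them, mm10, STAR, featureCounts, FastQC and edgeR 3.24.3 were used. The sources used here do not give the strand setting, annotation release or handling of multiply mapped reads, so overlapping genes and paralogs cannot be separated with certainty. Symbols came from GENCODE M21 (36429 of 38293 identifiers).

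Genes were kept by filterByExpr (minimum count 10, minimum total 15), normalized by TMM and compared by edgeR 4.0.16's 2-sided quasi-likelihood F test with robust dispersion in R 4.3.3, group only. The biological coefficient of variation was 39.6%. The SE is the log2 fold change divided by the square root of F. Levels between genes are CPM per kilobase of the deposited length, in base pairs per the file headers. An exact test of 3 against 3 libraries cannot give a 2-sided p under 0.1. The fit was also run on simulated counts with known changes, where all genes had the same spread. At a spread close to the common one observed, it missed most changes about as large as those of the receptor genes called higher. Receptor genes differ in spread (SE of 0.17 for Gabbr1 and 1.48 for Gria1), so the share missed does not carry over to single genes. A gene without a call is still not shown to be unchanged. Alternatives were DESeq2 1.42.0, limma-voom (limma 3.58.1), other scalings, no filter, a replicate block and each library left out. Sequences were read from GENCODE M21 and RefSeq, with Biopython 1.88 for translation.

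Members, lists and tests were chosen with earlier results of these data known. Some members are not reported here, but all 42 enter the counts. The others are given in full: tested ones with fold change, SE and adjusted p, those called or at a mean of at least 10 CPM also by library, untested ones by reads. Of the lists of related genes, markers apart, every called gene is named. Genes named without a call, markers apart, were chosen after their values were seen. The precursor marker Lhfpl3 was not analysed here.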

Additional observations from a re-analysis of the deposited data

How the results depend on the processing

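Of the 5 receptor genes called higher, 5 were called with upper-quartile factors, 4 with DESeq2 size factors and 4 without the filter. The count was 3 with library sizes alone and 3 by limma-voom (Gria3, Grid1 and Grik3 in both). The DESeq2 test called 6, which added Gria2, and 2162 genes in all. The number called lower was 0 with library sizes alone, without the filter and by limma-voom, where 3, 4 and 3 receptor genes were lower at an unadjusted p under 0.05, and 3 by DESeq2 (Gabra3, Grin2d and Grm3). With each library left out in turn, 440 to 1150 genes were called over the table against 1212 (440 and 576 on leaving out the first and the second Control library, 630 on leaving out EAE replicate 1), 1 to 3 receptor genes higher and 0 to 1 lower, the latter being Grm3. The number higher was 1 without Control replicate 1 or 2, 3 without EAE replicate 2 and 2 without each of the others. Each of these fits had 1 library fewer than the main fit, and the cause of the differences in calls was not tested.

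The sign of the log2 fold change turned only when single libraries were left out, for 8 of the reported genes, none of them called: Grik5 (-0.22 to 0.28), Gria1 (-3.48 to 1.48), Gabbr1 (-0.07 to 0.16), Gria4 (-0.19 to 0.08), Grin1 (-0.36 to 0.73), Grin3a (-0.54 to 0.07), Gabbr2 (-0.29 to 0.54) and Gabrg3 (-1.28 to 0.64).

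No sign was seen that replicate numbers pair the libraries. Deviations of same-numbered libraries from their group means correlated at 0.016, -0.040 and -0.034, and not every library correlated best with its own number. With 3 libraries per group this check cannot exclude a pairing, on which the labels are silent. With the replicate number as a block, edgeR called 818 genes, 2 receptor genes higher (Gria3 and Grik3) and 0 lower, with 3 lower at an unadjusted p under 0.05. With the longest transcript as length, 10 of 24 reported levels per kilobase in Control moved by more than the SD between libraries. The same length for the shares within a class, and the refits of the called genes in the related lists, were chosen after seeing the data. Depth limits statements on the 12 untested genes, of which 11 had at most 50 reads in all.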

Other observations

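Other chloride channel subunits outside the set were also present. Glrb, the beta subunit of glycine receptors, was at 112, 117 and 129 CPM in Control and 101, 130 and 79.3 CPM in EAE, with overlap and no call (log2 fold change -0.20 ± 0.19, edgeR adjusted p = 0.641), while the alpha subunit genes Glra1 and Glra3 had no read. Gabrr2, a rho subunit of GABA-gated channels, was at 13.3, 16.1 and 21.8 CPM in Control and 10.4, 25.5 and 2.96 CPM in EAE, with EAE replicate 3 lowest (edgeR adjusted p = 0.794). Of the 10 genes in this list 4 were tested, 0 were called by edgeR, and the median log2 fold change was -0.30.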
